A study of Mus musculus with 4 samples.

Results

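The 10 receptor genes of the homing family were followed as named rows of the count matrices: Ccr7, Ccr6, Ccr9, Ccr2, Cxcr4, Cxcr5, Cxcr6, Cx3cr1, Ackr3 and S1pr1. These 10 of 32289 genes were chosen by name, with earlier results of these data known. All 10 were found once in both matrices and all 10 had UMIs (unique molecular identifiers, one per captured RNA molecule) in both sorted fractions.

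Chemokine receptors are G protein-coupled receptors that let leukocytes move along gradients of chemokines laid down by stromal, epithelial and immune cells. In lymph nodes CCR7 reads CCL19 and CCL21 and brings dendritic cells (DCs) and naive T cells into the T cell zone. CXCR5 reads CXCL13 and leads to follicles, and S1PR1 reads sphingosine 1-phosphate and lets lymphocytes leave. CCR9 and CCR6 read CCL25 and CCL20 and are known for traffic to the intestine. CXCR4 reads CXCL12, and ACKR3 takes up CXCL12 without classical G protein signalling.

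The cells came from mesenteric lymph nodes (mLN, which drain the intestine) of 15-day-old mice carrying Gm38411-iCre-hCD2 and the R26tdTomato reporter. The hCD2+ fraction was tdTomato+ hCD2+ and the hCD2- fraction was tdTomato+ hCD2-, both from a sort for CD3- B220- CD11c+ MHC-II+ cells. In such a design tdTomato marks cells in which the recombinase has been active at some time, and hCD2 marks present activity of the Gm38411 locus. Each of 12 mice carried its own antibody hashtag, and the same hashtag is read as the same mouse in both fractions. Because the 12 mice of a fraction were run as 1 pooled library, fraction and library cannot be told apart.

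A level is given here as CPM, the standard sequencing unit: the UMIs of a gene were summed over the cells of a class in 1 mouse, divided by those of all genes and scaled to 1 fixed total. Only mice with at least 10 cells of a class entered. After filtering, 7099 hCD2+ and 4762 hCD2- cells with 1 assigned hashtag remained, with 365 to 897 hCD2+ and 234 to 592 hCD2- cells per mouse, and 20 called barcodes occurred in both libraries. Gm38411 averaged 40.95 CPM over all hCD2+ cells and 1.27 CPM over all hCD2- cells, in the direction of the sort. The classes were rebuilt by clustering without any of the 10 receptors or related genes, and named from marker lists. Of DCs, in the hCD2+ and hCD2- fractions, there were 994 and 16 Prdm16 or Aire DC-like cells, 748 and 958 migratory DC-like cells, 159 and 938 cDC2-like cells (conventional type 2 DCs) and 88 and 257 cDC1-like cells (type 1). Of lymphoid cells there were 3032 and 235 ILC3 or LTi-like cells (group 3 innate lymphoid cells and lymphoid tissue inducers), 62 and 427 NK or ILC1-like cells and 345 and 908 T cell-like cells. A further 1497 and 870 cells stayed unnamed. T cell-like cells were present although the sort gated on CD3- cells: Cd3e stood at 327 CPM in hCD2+ and 441 CPM in hCD2- mice, against 0.554 CPM in Prdm16 or Aire DC-like cells. Free RNA in droplets adds UMIs to every class, and an upper bound for it was set from droplets of 10 to 100 UMIs, scaled to whichever of 6 genes of DCs or T cells, from Itgax to Trac, was lowest in a class relative to those droplets. The mean lay under this bound for 12 of the 110 class values, which the bound does not tell apart from background. These were Ccr6 and Ackr3 in T cell-like hCD2+ cells, Cxcr6 and Ackr3 in cDC2-like hCD2+ cells, S1pr1 in cDC2-like cells and Cxcr6 in migratory DC-like cells of both fractions, Ccr2 in migratory DC-like hCD2- cells, and Ccr6, Cxcr5 and Ackr3 in cDC1-like hCD2- cells. For Ackr3 in T cell-like hCD2+ cells the bound was 11.3 CPM, against a measured 0.715 CPM, and in the Prdm16 or Aire DC-like class it was 1.23 CPM. The bound thus lies well above the free RNA of T cell-like hCD2+ cells. Ccr6 there, at 19.2 CPM from 197 UMIs against a bound of 21.4 CPM, is therefore not shown to be background.

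The promoter windows of 3 receptors are shown because several comparisons turn on these genes, Ccr6 and Cxcr6 with their highest class mean in ILC3 or LTi-like cells and Ackr3 in Prdm16 or Aire DC-like cells. Sequences are RefSeq windows of GRCm38.p6, from 250 bases before to 50 after a gene start, all on the plus strand; capitals mark a match to AGGTCA, searched on both strands, the core sequence known to be bound by several nuclear receptors. The windows are chr17:8235793-8236092 for Ccr6, chr9:123806227-123806526 for Cxcr6 and chr1:90203730-90204029 for Ackr3.
Ccr6: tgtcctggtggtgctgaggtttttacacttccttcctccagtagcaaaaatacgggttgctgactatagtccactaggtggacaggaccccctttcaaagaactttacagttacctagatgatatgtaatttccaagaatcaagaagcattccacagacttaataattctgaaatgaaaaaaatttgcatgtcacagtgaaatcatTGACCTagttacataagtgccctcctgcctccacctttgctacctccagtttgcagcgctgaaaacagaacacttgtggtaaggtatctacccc
Cxcr6: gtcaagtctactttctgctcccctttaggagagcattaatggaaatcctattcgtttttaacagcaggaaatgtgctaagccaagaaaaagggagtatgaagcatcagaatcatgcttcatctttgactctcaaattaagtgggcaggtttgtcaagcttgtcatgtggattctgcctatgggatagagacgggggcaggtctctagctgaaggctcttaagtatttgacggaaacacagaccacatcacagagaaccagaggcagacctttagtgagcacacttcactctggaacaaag
Ackr3: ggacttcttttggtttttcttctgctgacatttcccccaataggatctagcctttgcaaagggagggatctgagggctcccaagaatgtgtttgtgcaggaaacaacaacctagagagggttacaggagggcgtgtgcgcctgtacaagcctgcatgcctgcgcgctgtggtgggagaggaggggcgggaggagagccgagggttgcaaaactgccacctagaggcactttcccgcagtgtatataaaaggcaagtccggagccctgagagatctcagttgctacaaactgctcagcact
The Ccr6 window shown held the reverse complement of the motif, and the Cxcr6 and Ackr3 windows held none. RefSeq gives a second Ccr6 start, whose window (chr17:8242276-8242575) held none. Of the 8 windows available for 7 of the receptors 1 held the motif, against 5340 of 32851 windows of all genes (16.3%). A match is only a run of letters, and its use was not tested.

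**Figure D1:**
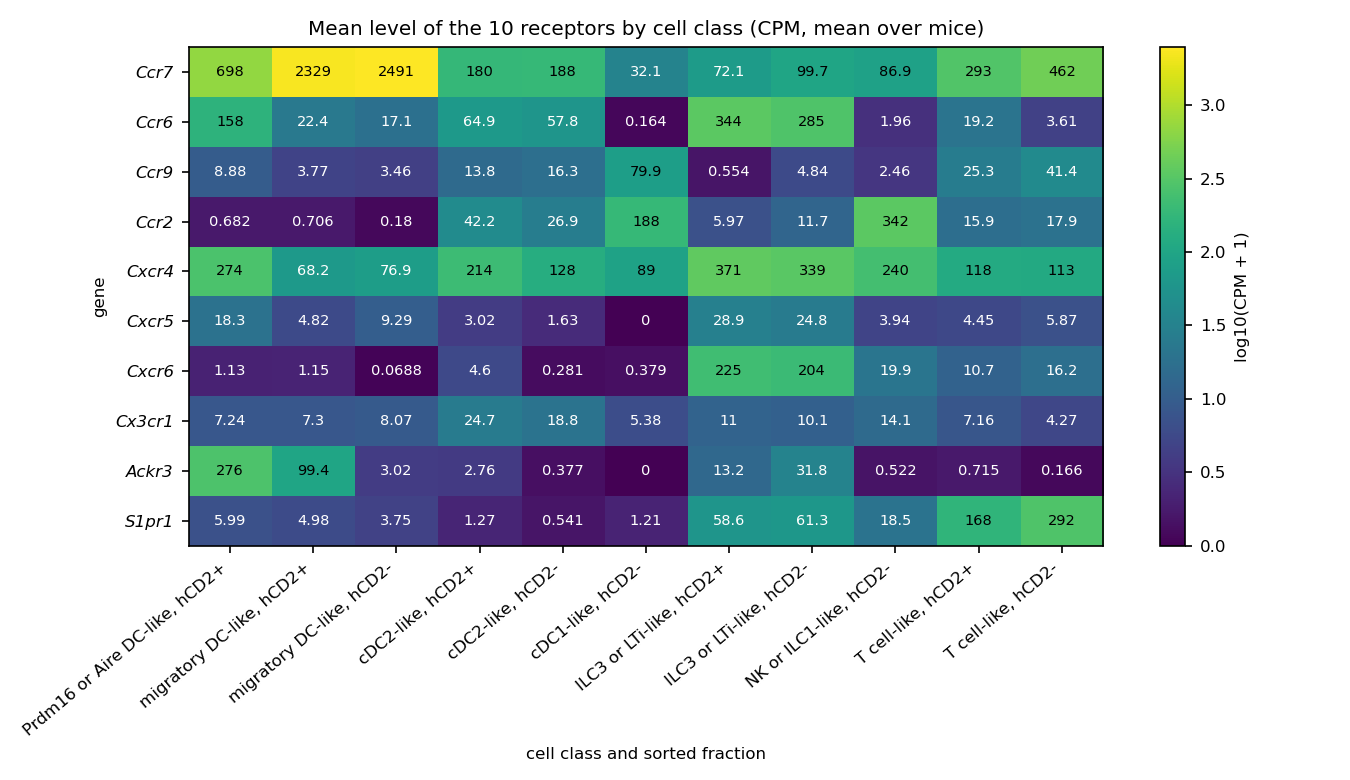
Mean level (CPM) of each receptor, rows, in every class and fraction with at least 6 mice, columns; colour is log10(CPM + 1) and the printed value is the mean over mice. Ccr7 reaches 2329 and 2491 CPM in the migratory DC-like columns, Cxcr6 stands at 225 and 204 CPM in ILC3 or LTi-like columns, and Ackr3 is at 276 CPM in the Prdm16 or Aire column.

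Ccr7 (chr11:99144196-99155077, minus strand, GRCm38 with GENCODE vM21) was highest in migratory DC-like cells. It measured 2093 to 2727 CPM with a median of 2315 CPM in the 12 hCD2+ mice and 2100.2 to 3011 CPM with a median of 2466 CPM in the 12 hCD2- mice. The Prdm16 or Aire DC-like class of the hCD2+ fraction followed with 587 to 886 CPM with a median of 699.7 CPM, and no mouse of it reached the lowest migratory value. The remaining order in the hCD2+ fraction was T cell-like (293 ± 121 CPM), cDC2-like (180.1 ± 82.1 CPM) and ILC3 or LTi-like cells (72.1 ± 17.02 CPM), with SDs over 11, 9 and 12 mice. T cell-like and cDC2-like cells did not differ beyond their spread there (higher in 6 of 8 mice that had both, adjusted p = 0.177, exact two-sided sign-flip test over mice). In the hCD2- fraction T cell-like cells stood at 462 ± 63.3 CPM (SD, n = 12), above cDC2-like cells at 188 ± 55.5 CPM (SD, n = 12) in 12 of 12 mice (adjusted p = 0.00271, exact sign-flip test). After thinning every cell to 5000 UMIs, 98.7% of 907 migratory DC-like cells of the hCD2- fraction held at least 1 Ccr7 UMI (Wilson 95% interval 97.7 to 99.2%; median depth before thinning 29451.5 UMIs), against 5.16% of 252 cDC1-like cells (median 42017.0 UMIs). Unthinned, the Ccr7 share was 99.2%.

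Migratory DC-like cells were set against cDC2-like cells within the hCD2- fraction. Ccr7 was higher in them in 12 of 12 mice (log2 fold change 4.11 ± 0.14 SE, adjusted p = 5.83e-21, edgeR). Cxcr5 was higher in 11 of 12 mice, at 9.29 against 1.63 CPM (log2 fold change 3.30 ± 0.45 SE, adjusted p = 1.45e-07, edgeR). Its cDC2-like level rests on 30 UMIs, with 5 of 12 mice at 0 and 1 mouse at 14.2 CPM. Without that mouse the cDC2-like mean was 0.486 CPM, so the size of the fold is uncertain. Ccr6, Ccr9, Cxcr4 and Cx3cr1 were lower in migratory DC-like cells. Ccr6, the receptor of CCL20, measured 17.1 CPM in migratory and 57.8 CPM in cDC2-like cells (log2 fold change -1.36 ± 0.12 SE, adjusted p = 2.16e-11, edgeR). Ccr2, the monocyte receptor of CCL2, measured 0.180 and 26.9 CPM without overlap between the groups, the migratory value under the free RNA bound, and was too low for the fit. Thus 6 of the 6 receptors that passed the filter on low counts were called, where 78.4% of all genes tested (37.2% higher, 41.2% lower) were called. With cells thinned to 5000 UMIs the Cxcr4 call was lost (log2 fold change -0.28, adjusted p = 0.103 in edgeR; range over the alternatives 2.15e-04 to 0.103).

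Ccr6 (chr17:8236043-8257141, plus strand) was led by ILC3 or LTi-like cells in both fractions, at 309.6 to 391.6 CPM with a median of 337 CPM over 12 hCD2+ mice and 209 to 396 CPM with a median of 271 CPM over 11 hCD2- mice. Next in the hCD2+ fraction came the Prdm16 or Aire DC-like class, at 137 to 181 CPM with a median of 156 CPM. Their lowest mouse lay above the highest cDC2-like mouse, since cDC2-like cells ranged from 18.4 to 127 CPM. At the other end, cDC1-like cells of the hCD2- fraction held 3 Ccr6 UMIs in all. Their mean of 0.164 CPM lay under the free RNA bound of 0.613 CPM and is not told apart from background. Of cells thinned to 5000 UMIs, 73.5% of 2993 ILC3 or LTi-like cells of the hCD2+ fraction held at least 1 Ccr6 UMI (Wilson 95% interval 71.9 to 75.1%; median depth before thinning 16679.0 UMIs), against 0 of 83 cDC1-like cells, which allows a share of up to 3.61% at 3 counts (Wilson upper limit 4.42%) (median 40124.0 UMIs). The Ccr6 share before thinning was 93.7%.

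Cxcr6 (chr9:123806475-123811760, plus strand), the receptor of the membrane-bound chemokine CXCL16, was highest in ILC3 or LTi-like cells. Their level was 187 to 262 CPM with a median of 222 CPM in hCD2+ mice and 122 to 284 CPM with a median of 198 CPM in hCD2- mice. The next class with a class mean was T cell-like cells at 10.7 ± 4.77 CPM in the hCD2+ fraction (SD, n = 11) and NK or ILC1-like cells at 19.9 ± 16.04 CPM in the hCD2- fraction (SD, n = 12), and neither group overlapped with the ILC3 or LTi-like mice. The 62 NK or ILC1-like cells of the hCD2+ fraction, pooled over mice because 2 mice had 10 of them, gave 132 CPM (113 to 154), the brackets giving an exact Poisson 95% interval for counting error only. Among DC classes with a class mean the highest was 4.60 CPM, in cDC2-like hCD2+ cells, where 1 of 9 mice held 25.3 CPM and the mean lay under the free RNA bound. With every cell thinned to 5000 UMIs, 58.3% of 2993 ILC3 or LTi-like cells of the hCD2+ fraction held at least 1 Cxcr6 UMI (Wilson 95% interval 56.6 to 60.1%; median depth before thinning 16679.0 UMIs), against 0.278% of 719 migratory DC-like cells (median 32821.5 UMIs). With all UMIs the Cxcr6 share was 83.4%.

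Ccr9 (chr9:123678439-123784330, plus strand), known for homing to the small intestine, peaked in pDC-like cells (plasmacytoid DCs), a class with too few mice for a mean. Summed over cells it was 977 CPM (909 to 1048) in 32 hCD2+ cells and 1068 CPM (1028 to 1109) in 103 hCD2- cells, the brackets giving exact Poisson 95% intervals that cover counting error only. Among classes with 6 mice or more, cDC1-like cells of the hCD2- fraction led with 45.2 to 130.4 CPM with a median of 77.98 CPM. T cell-like cells followed at 41.4 ± 11.9 CPM (SD, n = 12), below cDC1-like cells in 10 of 11 mice (adjusted p = 0.0128, exact sign-flip test). ILC3 or LTi-like cells of the hCD2- fraction averaged 4.84 CPM, but 1 mouse held 50.6 CPM and 9 of 11 mice held 0; without that mouse the mean was 0.271 CPM. After thinning to 5000 UMIs, 26.6% of 252 cDC1-like cells of the hCD2- fraction held at least 1 Ccr9 UMI (Wilson 95% interval 21.5 to 32.4%; median depth before thinning 42017.0 UMIs), against 0.444% of 225 ILC3 or LTi-like cells (median 18427.0 UMIs). All UMIs counted, the Ccr9 share was 61.1%.

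Ccr2 (chr9:124101950-124113557, plus strand), the receptor for CCL2 that marks monocytes and their progeny, was highest, among classes with at least 6 mice, in NK or ILC1-like cells of the hCD2- fraction, at 212 to 469 CPM with a median of 349 CPM. cDC1-like cells measured 94.1 to 262 CPM with a median of 185 CPM, above cDC2-like cells at 0.918 to 64.4 CPM with a median of 22.2 CPM, and the last pair of classes did not overlap (log2 fold change 2.91 ± 0.32 SE, adjusted p = 1.02e-08, edgeR, higher in 11 of 11 mice). Other, rare classes held it too. Monocyte or macrophage-like cells summed to 231 CPM (212 to 249.9) in 112 hCD2+ cells and 279 CPM (247 to 313) in 44 hCD2- cells, and stromal-like cells summed to 430.4 CPM (389 to 475) in 30 hCD2+ cells, where 1 mouse had 10 cells. The stromal-like cluster also had 5 cDC2 markers at the naming threshold, so its Ccr2 is not credited to stromal cells alone. In Prdm16 or Aire DC-like cells Ccr2 was at 0 in 9 of 12 mice, and its mean of 0.682 CPM was 0.0682 CPM without the mouse at 7.43 CPM. Thinned to 5000 UMIs, 63.2% of 413 NK or ILC1-like cells of the hCD2- fraction held at least 1 Ccr2 UMI (Wilson 95% interval 58.4 to 67.7%; median depth before thinning 19888.0 UMIs), against 0.221% of 907 migratory DC-like cells (median 29451.5 UMIs). Before thinning the Ccr2 share was 80.8%.

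Ccr9, Cxcr6 and Ccr2 lie in this order on chromosome 9, with 22144 bases between the Ccr9 and Cxcr6 models and 290189 bases between Cxcr6 and Ccr2. Among classes with at least 6 mice their leading classes differ: cDC1-like cells for Ccr9, ILC3 or LTi-like cells for Cxcr6, NK or ILC1-like cells for Ccr2. In the annotation the Cxcr6 model lies inside Fyco1 on the opposite strand and the Ccr9 model overlaps Lztfl1 on the opposite strand and the non-coding Gm17200 on its own strand, over 22608 bases. Cx3cr1 overlaps 9 other models, 3 of them protein-coding genes on its own strand. Whether counting used strand is not given in the sources used here, so reads of such overlaps cannot be told apart.

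Cxcr4 (chr1:128588199-128592293, minus strand) was detected in every class. Among classes with a class mean ILC3 or LTi-like cells led with 293 to 461 CPM with a median of 369.6 CPM in hCD2+ mice and 282 to 424 CPM with a median of 343 CPM in hCD2- mice. Prdm16 or Aire DC-like cells measured 194 to 385 CPM with a median of 279 CPM, below ILC3 or LTi-like cells in 11 of 12 mice (adjusted p = 0.00300, exact sign-flip test), and did not differ beyond the spread from cDC2-like cells at 214 ± 98.3 CPM (SD, n = 9). The clusters of the Prdm16 or Aire class differed in Cxcr4, as described below. Monocyte or macrophage-like cells, pooled, gave 349.9 CPM (327 to 374) in 112 hCD2+ cells and 455 CPM (415 to 499) in 44 hCD2- cells. Among classes with a class mean, migratory DC-like cells were lowest in both fractions, at 68.2 ± 16.7 CPM and 76.9 ± 19.3 CPM in hCD2+ and hCD2- mice (SD, n = 12 each). At 5000 UMIs per cell, 63.8% of 2993 ILC3 or LTi-like cells of the hCD2+ fraction held at least 1 Cxcr4 UMI (Wilson 95% interval 62.04 to 65.5%; median depth before thinning 16679.0 UMIs), against 21.98% of 719 migratory DC-like cells (median 32821.5 UMIs). For Cxcr4 the unthinned share was 84.6%.

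Ackr3 (chr1:90203980-90216751, plus strand), which removes CXCL12 from the surroundings of a cell and is known as a scavenger, was highest in Prdm16 or Aire DC-like cells. Prdm16 or Aire DC-like cells held 230.0 to 373 CPM with a median of 269 CPM. Migratory DC-like cells of the hCD2+ fraction ranged from 24.8 to 165 CPM with a median of 110.1 CPM. Those of the hCD2- fraction ranged from 0 to 20.2 CPM with a median of 0.0976 CPM, so the 2 fractions did not overlap. Nearly all Ackr3 of the hCD2+ migratory cells lay in cluster 13, which held 224 hCD2+ and 9 hCD2- cells and is described below. ILC3 or LTi-like cells held 9.58 to 21.4 CPM with a median of 12.03 CPM in hCD2+ and 7.37 to 59.3 CPM with a median of 30.5 CPM in hCD2- mice. cDC1-like cells of the hCD2- fraction held 0 UMIs, a level under 0.272 CPM at 3 counts of the class total. The 16 Prdm16 or Aire DC-like cells found in the hCD2- fraction, pooled over mice, gave 303 CPM (247 to 368). With cells thinned to 5000 UMIs, 54.8% of 946 Prdm16 or Aire DC-like cells of the hCD2+ fraction held at least 1 Ackr3 UMI (Wilson 95% interval 51.6 to 57.9%; median depth before thinning 32315.5 UMIs), against 0 of 60 NK or ILC1-like cells, which allows a share of up to 5.0% at 3 counts (Wilson upper limit 6.02%) (median 15597.0 UMIs). At full depth the Ackr3 share was 82.9%.

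Cxcr5 (chr9:44511787-44561877, minus strand), the follicle-homing receptor for CXCL13, was highest, among classes with a class mean, in ILC3 or LTi-like cells, at 28.9 ± 3.84 CPM in hCD2+ and 24.8 ± 11.9 CPM in hCD2- mice (SD, n = 12 and 11). Prdm16 or Aire DC-like cells averaged 18.3 ± 6.80 CPM (SD, n = 12), but their cluster 10 alone lay above the ILC3 or LTi-like mean, as described below. In cDC1-like hCD2- cells there were 0 Cxcr5 UMIs. After thinning to 5000 UMIs, 11.4% of 2993 ILC3 or LTi-like cells of the hCD2+ fraction held at least 1 Cxcr5 UMI (Wilson 95% interval 10.3 to 12.6%; median depth before thinning 16679.0 UMIs), against 0 of 83 cDC1-like cells, which allows a share of up to 3.61% at 3 counts (Wilson upper limit 4.42%) (median 40124.0 UMIs). The unthinned Cxcr5 share was 28.7%. Cx3cr1 (chr9:119901616-120069879, minus strand), the receptor for CX3CL1 on monocytes and some DCs, was led by cDC2-like cells at 24.7 ± 14.4 CPM in hCD2+ and 18.8 ± 8.49 CPM in hCD2- mice (SD, n = 9 and 12). In the hCD2- fraction none of its 5 neighbouring pairs of classes differed beyond the spread. Monocyte or macrophage-like cells, pooled, were far above them at 206 CPM (189 to 224) in 112 hCD2+ cells and 201 CPM (174 to 231) in 44 hCD2- cells. At 5000 UMIs per cell, 14.0% of 150 cDC2-like cells of the hCD2+ fraction held at least 1 Cx3cr1 UMI (Wilson 95% interval 9.34 to 20.5%; median depth before thinning 31350.0 UMIs), against 2.64% of 946 Prdm16 or Aire DC-like cells (median 32315.5 UMIs). Full-depth cells gave a Cx3cr1 share of 30.2%.

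S1pr1 (chr3:115710433-115715072, minus strand), the egress receptor, was highest in T cell-like cells. T cell-like cells measured 74.6 to 292 CPM with a median of 153 CPM in hCD2+ and 256 to 379 CPM with a median of 281 CPM in hCD2- mice. ILC3 or LTi-like cells followed at 58.6 ± 6.0 CPM and 61.3 ± 16.6 CPM (SD, n = 12 and 11). NK or ILC1-like hCD2- cells held 18.5 ± 4.35 CPM (SD, n = 12), and each step of that order held in the exact sign-flip test (adjusted p = 0.00271 for both). All DC classes with a class mean were at 5.99 CPM or less. Of cells thinned to 5000 UMIs, 70.1% of 877 T cell-like cells of the hCD2- fraction held at least 1 S1pr1 UMI (Wilson 95% interval 67.01 to 73.1%; median depth before thinning 17198.0 UMIs), against 0 of 873 cDC2-like cells, which allows a share of up to 0.344% at 3 counts (Wilson upper limit 0.438%) (median 28113.5 UMIs). The S1pr1 share at full depth was 92.95%. Over all 10 receptors, 16 of 40 neighbouring pairs of classes in the hCD2+ fraction and 27 of 50 in the hCD2- fraction did not differ in this test.

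**Figure D2:**
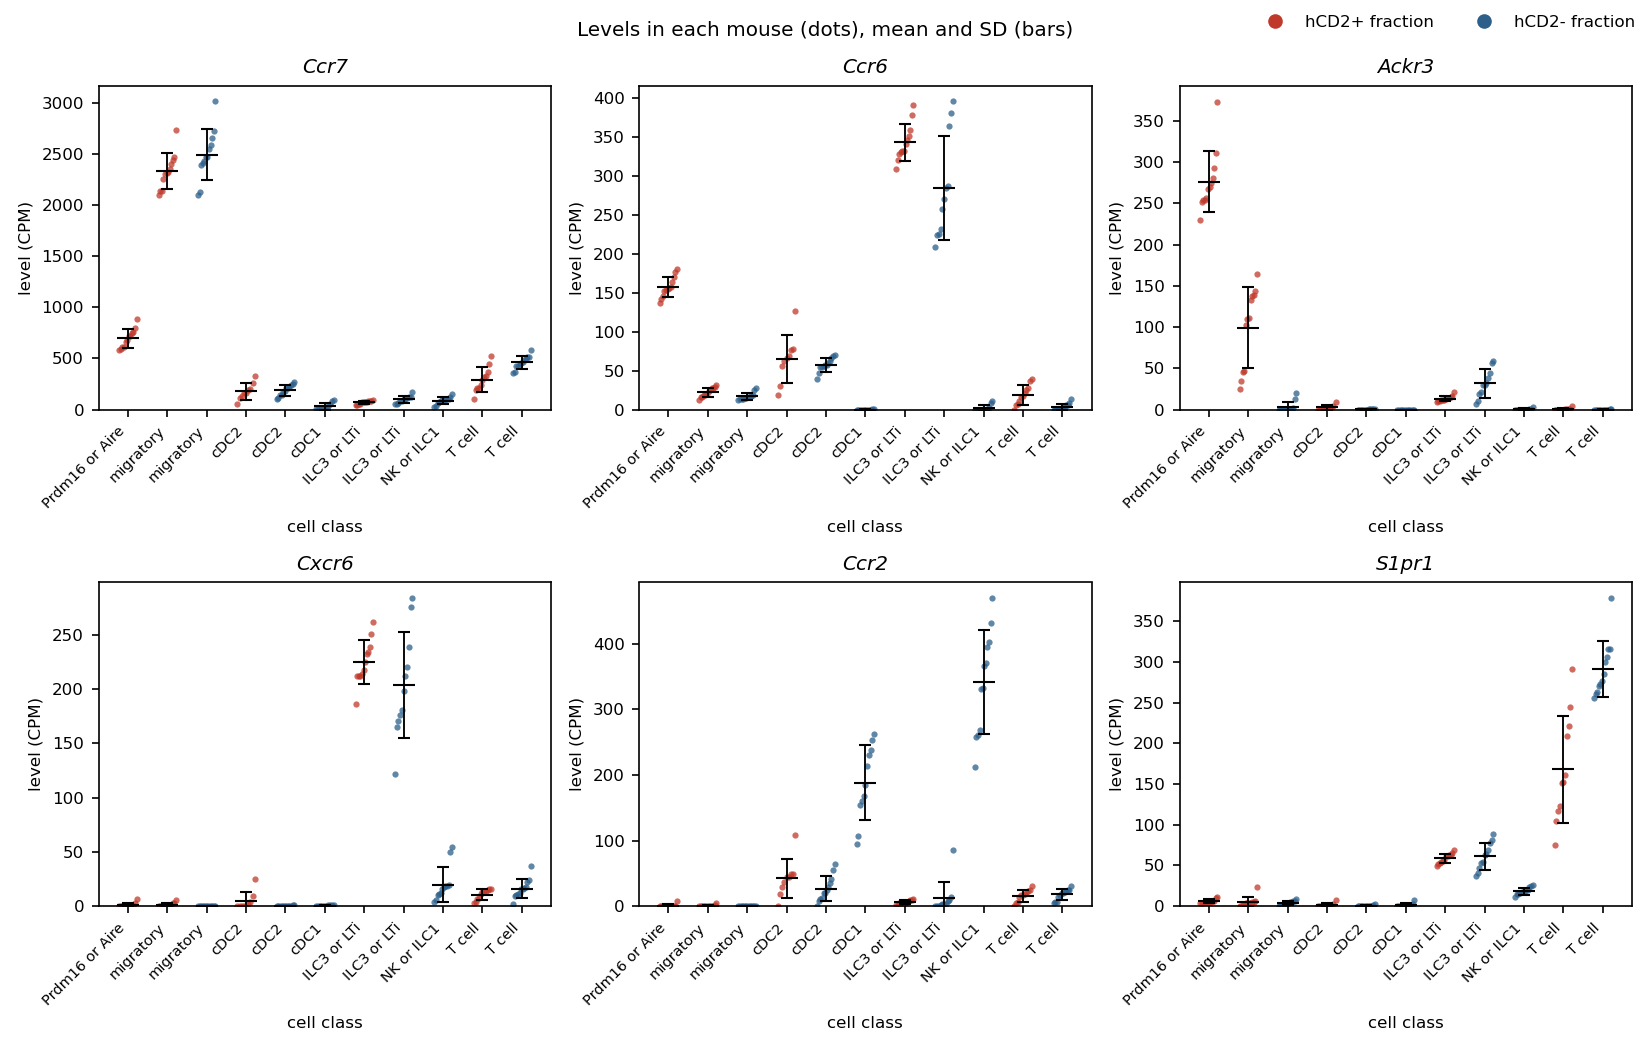
Level (CPM) of 6 receptors in each mouse, 1 dot per mouse with at least 10 cells of the class, by class on the x axis; hCD2+ in red and hCD2- in blue, bars give the mean and SD. Each panel has its own y axis; the lowest Cxcr6 dot of the hCD2+ ILC3 or LTi class, at 187 CPM, lies above every dot of the other classes, and the Ackr3 dots of hCD2- migratory DC-like cells end at 20.2 CPM.

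Prdm16 or Aire DC-like cells of the hCD2+ fraction were set against 3 other classes of the same library to ask which homing receptors differ. Against migratory DC-like cells of the same mice they had less Ccr7 (log2 fold change -1.997 ± 0.063 SE, adjusted p = 3.19e-21, edgeR). They had more Ccr6 (log2 fold change 2.55 ± 0.10 SE, adjusted p = 4.93e-19), Cxcr4 (log2 fold change 1.74 ± 0.12 SE, adjusted p = 2.70e-13) and Ackr3 (log2 fold change 1.20 ± 0.21 SE, adjusted p = 1.00e-05, edgeR), each in 12 of 12 mice. Cxcr5 (log2 fold change 1.55 ± 0.23 SE, adjusted p = 1.07e-06) was higher in 12 of 12 mice and Ccr9 (log2 fold change 0.95 ± 0.30 SE, adjusted p = 0.00622, edgeR) in 10 of 12 mice. So 6 of 8 receptors that passed the filter were called, where 74.4% of all genes tested (39.1% higher, 35.4% lower) were. The Cxcr5 difference is one of the class mean: in cluster 6, which held 638 of the 994 cells, the Cxcr5 median lay under the migratory mean. The Ackr3 difference grew to a log2 fold change 6.79, adjusted p = 3.48e-20 (edgeR; range over the alternatives 3.48e-20 to 1.31e-05) when cluster 13, a cluster with Prdm16 markers, was left out of the migratory class. Ccr9 then lost its call (log2 fold change 0.59, adjusted p = 0.105; range 0.00314 to 0.105).

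Against cDC2-like cells of the hCD2+ fraction the same class had more Ccr7 (log2 fold change 2.05 ± 0.17 SE, adjusted p = 1.78e-10), Ccr6 (log2 fold change 1.45 ± 0.16 SE, adjusted p = 2.20e-08), Cxcr5 (log2 fold change 2.66 ± 0.41 SE, adjusted p = 3.96e-06) and Ackr3 (log2 fold change 6.69 ± 0.22 SE, adjusted p = 2.75e-18, edgeR), each in 9 of 9 mice; the cDC2-like Ackr3 level lies under the free RNA bound. Ccr2 (log2 fold change -6.23 ± 0.59 SE, adjusted p = 1.50e-09) and Cx3cr1 (log2 fold change -1.73 ± 0.28 SE, adjusted p = 7.26e-06, edgeR) were lower in 8 of 9 mice. Here 6 of 8 tested receptors were called, against 60.4% of all genes tested (30.6% higher, 29.9% lower). The Ccr7, Cxcr5, Ccr6 and Cxcr4 values are those of a class mean over 2 unlike clusters. In cluster 6, which held 638 of the 994 cells, both lay near the cDC2-like levels, as described below. Cxcr4 did not pass (log2 fold change 0.42 ± 0.20 SE, adjusted p = 0.0715, edgeR), but did with the mouse as a block (log2 fold change 0.56, adjusted p = 0.0304; range over the alternatives 0.0304 to 0.700).

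Against ILC3 or LTi-like cells, the other large hCD2+ class, Ccr7 (log2 fold change 3.45 ± 0.11 SE, adjusted p = 8.89e-22) and Ackr3 (log2 fold change 4.57 ± 0.099 SE, adjusted p = 4.05e-26, edgeR) were higher in 12 of 12 mice. Cxcr6 (log2 fold change -7.48 ± 0.21 SE, adjusted p = 2.89e-23), S1pr1 (log2 fold change -3.13 ± 0.11 SE, adjusted p = 1.61e-21) and Ccr6 (log2 fold change -0.94 ± 0.045 SE, adjusted p = 1.02e-17, edgeR) were lower in 12 of 12. Cxcr4, Cxcr5 and Cx3cr1 were lower by smaller amounts, with log2 fold changes of -0.26, -0.50 and -0.39. All 8 tested receptors were called, against 82.2% of all genes tested (40.8% higher, 41.5% lower). The Cxcr5 value shrank when cells were thinned to 5000 UMIs (log2 fold change -0.14, adjusted p = 0.481 in edgeR; range 1.51e-04 to 0.481).

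**Figure D3:**
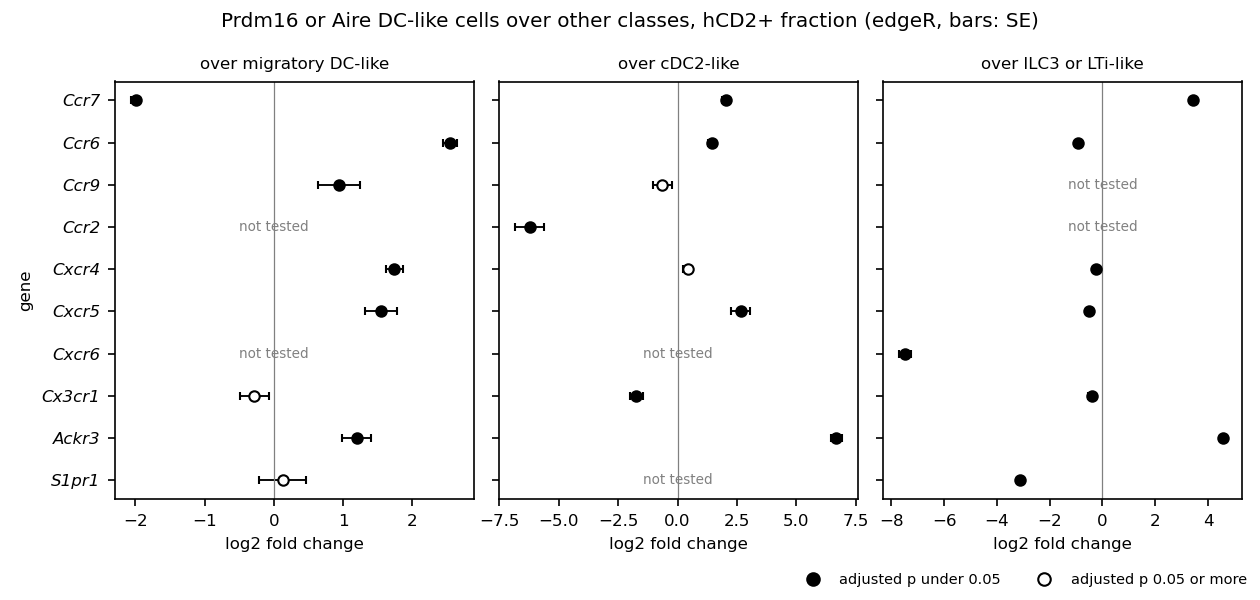
Log2 fold change of each receptor in Prdm16 or Aire DC-like cells over migratory DC-like, cDC2-like and ILC3 or LTi-like cells of the hCD2+ fraction, with SE from edgeR; filled points have an adjusted p under 0.05 and each panel has its own x axis. Ackr3 lies right of 0 in all 3 panels, Ccr7 left of 0 against migratory DC-like cells (-1.997) and right of 0 in the others.

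The Prdm16 or Aire class was made of 2 clusters that were set against each other after the clusters had been seen. Cluster 10, led by Ldb2, Asprv1 and Tnni1, had Aire at 555 CPM and Prdm16 at 1957 CPM, and cluster 6, led by Col17a1, Prdm16 and Nccrp1, had Aire at 15.2 CPM and Prdm16 at 3243 CPM. Ccr7 measured 1410.5 to 2076 CPM with a median of 1884 CPM in cluster 10 and 121 to 334 CPM with a median of 216 CPM in cluster 6 (log2 fold change 3.22 ± 0.15 SE, adjusted p = 7.41e-18, edgeR). Ackr3 measured 394 to 701 CPM with a median of 484 CPM in cluster 10 and 138 to 242 CPM with a median of 176 CPM in cluster 6 (log2 fold change 1.72 ± 0.097 SE, adjusted p = 7.20e-16, edgeR). Cxcr5 measured 28.5 to 83.7 CPM with a median of 52.4 CPM in cluster 10 and 0.579 to 5.13 CPM with a median of 2.63 CPM in cluster 6 (log2 fold change 4.34 ± 0.23 SE, adjusted p = 2.36e-16, edgeR). These 3 receptors were higher in the Aire-high cluster in 12 of 12 mice. The opposite held for Ccr6, at 30.3 to 65.3 CPM with a median of 50.1 CPM in cluster 10 and 169 to 242 CPM with a median of 207 CPM in cluster 6 (log2 fold change -1.86 ± 0.099 SE, adjusted p = 1.84e-16, edgeR). It also held for Cxcr4, at 135 ± 27.1 CPM and 334 ± 69.2 CPM (SD, n = 12 each, log2 fold change -1.08 ± 0.12 SE, adjusted p = 2.06e-09, edgeR). None of these 5 receptors overlapped between the clusters over 12 mice each. The share of all genes without overlap was not counted, so this is not read as particular to the receptors. All 5 of 5 tested receptors were called, against 66.7% of all genes tested (32.8% higher, 33.9% lower). Cluster 10 also carried 5 of the 11 migratory DC markers at the naming threshold, among them Fscn1 at 376 CPM against 79.6 CPM in cluster 6. The part of this difference in the Ccr7 values was not tested.

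Within the migratory class, cluster 13 (leading genes Itgb8, Prkg1 and Selenom) held 224 hCD2+ and 9 hCD2- cells, and cluster 1 (Ccl17, St18 and Col27a1) held 328 and 806. Ackr3 measured 84.05 to 379 CPM with a median of 299 CPM over 8 mice in cluster 13 of the hCD2+ fraction and 0 to 2.35 CPM with a median of 0 CPM over 12 mice in cluster 1 (log2 fold change 8.45 ± 0.35 SE, adjusted p = 8.26e-16, edgeR, higher in 8 of 8 mice). Cluster 11, the third migratory cluster, stood at 3.70 ± 7.96 CPM (SD, n = 10), and cluster 1 of the hCD2- fraction at 0.111 ± 0.227 CPM (SD, n = 12). Cluster 13 also had more Ccr6, at 37.8 against 14.8 CPM (log2 fold change 1.20 ± 0.20 SE, adjusted p = 1.92e-05, edgeR, 8 of 8 mice). It had more Cxcr4, at 90.8 against 57.4 CPM (log2 fold change 0.65 ± 0.20 SE, adjusted p = 0.00989, edgeR). Its Ccr7 was slightly higher in 7 of 8 mice (log2 fold change 0.20 ± 0.081 SE, adjusted p = 0.0403, edgeR; with the mouse as a block log2 fold change 0.21, adjusted p = 0.0733; range over the alternatives 0.0313 to 0.151). The 4 calls of 4 tested receptors stand against 47.7% of all genes tested (24.2% higher, 23.4% lower). Cluster 13 carried Prdm16 at 1101 CPM and Itgb8 at 888 CPM, against 23.1 and 68.8 CPM in cluster 1. The 10 Prdm16 or Aire markers summed to 1028 to 1681 CPM in cluster 13 with 1 of 10 at 0, against 43.03 to 145 CPM in cluster 1 with 0 of 10 at 0. Prdm16 alone, at 1101 CPM, made up most of the sum in cluster 13, where 3 of the 10 markers passed the naming threshold. The part of these markers in the Ackr3 difference was not tested.

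**Figure D4:**
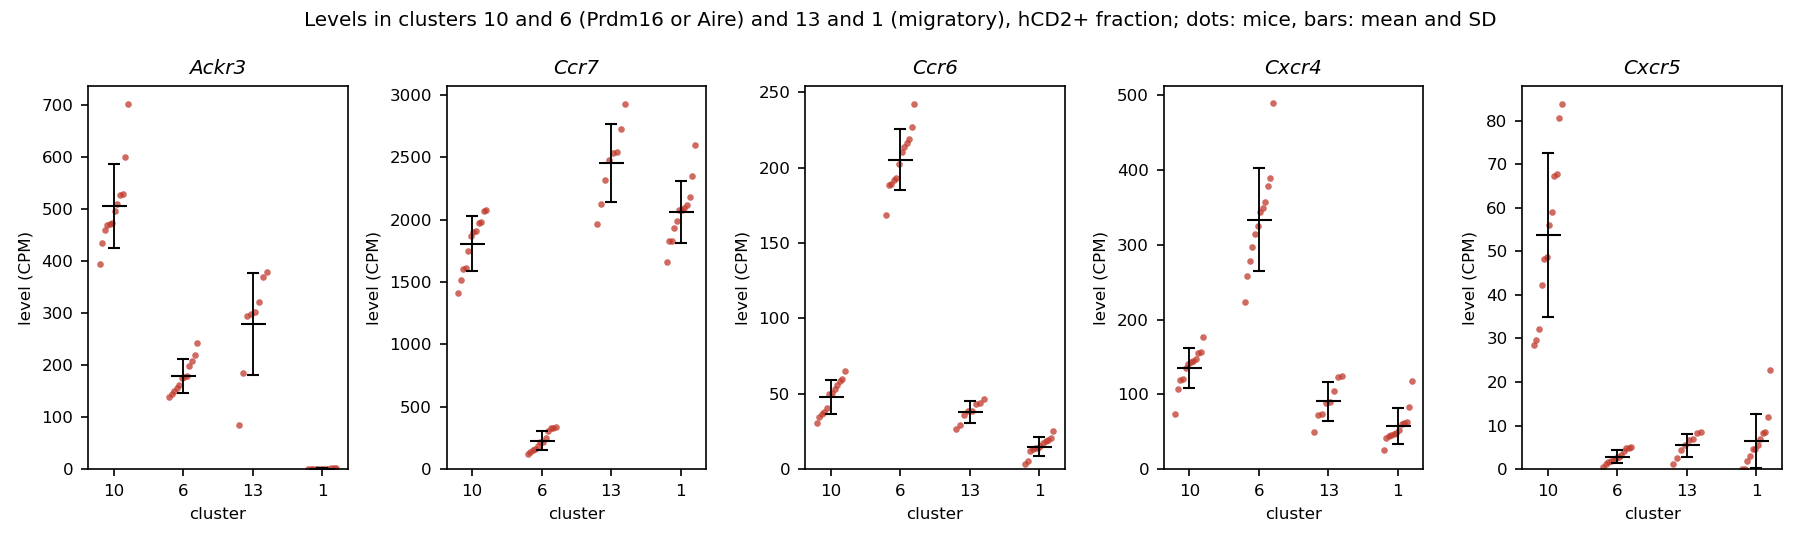
Level (CPM) of 5 receptors in each mouse (dots, with mean and SD) in clusters 10 and 6 of the Prdm16 or Aire class and in clusters 13 and 1 of the migratory class, hCD2+ fraction. Ackr3 is at 505, 179 and 279 CPM in clusters 10, 6 and 13 and at 0.559 CPM in cluster 1; Cxcr5 is at 53.7 CPM in cluster 10 and at 6.52 CPM or less in the other 3.

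Over all cells the hCD2+ fraction had more Ackr3 (log2 fold change 4.70 ± 0.29 SE, adjusted p = 2.27e-13), Cxcr6 (log2 fold change 2.68 ± 0.15 SE, adjusted p = 3.60e-14), Ccr6 (log2 fold change 2.38 ± 0.11 SE, adjusted p = 9.33e-16), Cxcr5 (log2 fold change 1.60 ± 0.14 SE, adjusted p = 3.50e-10) and Cxcr4 (log2 fold change 0.87 ± 0.10 SE, adjusted p = 4.23e-08, edgeR), each in 12 of 12 mice and without overlap between the fractions. The same fraction had less Ccr2 (log2 fold change -1.69 ± 0.18 SE, adjusted p = 5.51e-09), Ccr9 (log2 fold change -1.53 ± 0.28 SE, adjusted p = 3.29e-05) and S1pr1 (log2 fold change -0.61 ± 0.10 SE, adjusted p = 7.05e-06, edgeR), in 12, 12 and 11 of 12 mice. It had slightly less Ccr7 (log2 fold change -0.23 ± 0.10 SE, adjusted p = 0.0482, edgeR, in 9 of 12 mice). So 9 of 10 were called, where 67.8% of all genes tested (33.9% higher, 33.9% lower) were. The share of all genes without overlap between the fractions was not counted, so the lack of overlap is not read as particular to the receptors. The classes make up different shares of the fractions: ILC3 or LTi-like cells were 42.3 ± 6.35% of hCD2+ and 5.19 ± 2.14% of hCD2- cells per mouse, and T cell-like cells 4.88 ± 2.68% and 18.8 ± 4.09% (SD, n = 12 each). When both fractions were drawn down to the same number of cells per cluster, 1901 cells each, 0 of the 10 receptors were called, where 5.91% of all genes tested were, so a count of 0 lies near that share. Ackr3 then had a log2 fold change 0.67, adjusted p = 0.428 (edgeR). Ccr9 and Cxcr5 changed sign (log2 fold change 0.075, adjusted p = 0.925; log2 fold change -0.17, adjusted p = 0.771 in edgeR). Ranges over the alternatives were 3.46e-39 to 0.428 for Ackr3, 1.13e-07 to 0.925 for Ccr9 and 2.04e-28 to 0.771 for Cxcr5.

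In migratory DC-like cells Ackr3 was higher in the hCD2+ fraction in 12 of 12 mice (log2 fold change 4.96 ± 0.52 SE, adjusted p = 3.01e-08) and Cxcr5 lower in 10 of 12 mice (log2 fold change -0.89 ± 0.22 SE, adjusted p = 0.00233, edgeR), 2 of 6 tested receptors against 33.2% of all genes tested (17% higher, 16.2% lower). This class was made up differently: cluster 1 held 328 of 748 hCD2+ cells and 806 of 958 hCD2- cells, and cluster 13 held 224 and 9. With cells thinned to 5000 UMIs neither Ackr3 nor Cxcr5 passed the filter, and 0 of 2 receptors still tested were called, against 25% of all genes. Without cluster 13 Ackr3 no longer passed the filter on low counts, and Cxcr5 stayed lower (log2 fold change -0.88, adjusted p = 0.0332; range over the alternatives 6.42e-04 to 0.0332). With the mouse as a block Ccr7 (log2 fold change -0.13, adjusted p = 0.0122; range 0.0122 to 0.155) and Ccr6 (log2 fold change 0.37, adjusted p = 0.0346; range 0.0346 to 0.359) were called as well, in edgeR.

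In ILC3 or LTi-like cells 1 of 9 tested receptors differed, against 4.24% of all genes tested (1.83% higher, 2.41% lower). Ackr3 was lower in the hCD2+ fraction, at 13.2 CPM against 31.8 CPM, in 9 of 11 mice (log2 fold change -1.39 ± 0.22 SE, adjusted p = 1.28e-04, edgeR; range over the alternatives 4.87e-10 to 0.00210). Ccr6, Cxcr4, Cxcr5, Cxcr6 and S1pr1 did not pass, with log2 fold changes between -0.11 and 0.23. Ccr7 lay just outside the threshold (log2 fold change -0.57 ± 0.17 SE, adjusted p = 0.0544, edgeR) and inside it with RLE scaling (log2 fold change -0.58, adjusted p = 0.0492; range 0.00282 to 0.693). The Ackr3 effect of the fraction differed between ILC3 or LTi-like and migratory DC-like cells in a test of the difference itself (log2 difference -6.32 ± 0.69 SE, adjusted p = 3.57e-09, edgeR interaction term). Cxcr5 passed too, and so did Cxcr6, whose migratory values lie under the free RNA bound in both fractions, so that its call is not read as a difference. These are 3 of 8 tested receptors against 10.6% of all genes tested (4.35% higher, 6.21% lower).

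In cDC2-like cells Cxcr4 was higher in the hCD2+ fraction, at 214 ± 98.3 CPM against 128 ± 33.5 CPM (SD, n = 9 and 12), in 7 of 9 mice (log2 fold change 0.77 ± 0.22 SE, adjusted p = 0.0201, edgeR), 1 of 6 tested receptors against 13.5% of all genes tested (7.48% higher, 6.04% lower). With the mouse as a block it no longer passed (log2 fold change 0.63, adjusted p = 0.0505; range over the alternatives 2.62e-04 to 0.0505). The cDC2-like class was made up differently too: cluster 4 held 87 of 159 hCD2+ cells and 750 of 938 hCD2- cells. Cluster 19, with cell cycle genes in its lead, held 39 and 108, and cluster 22 held 33 and 80. The part of this mix in the Cxcr4 difference was not tested. Among T cell-like cells S1pr1 (log2 fold change -0.81 ± 0.16 SE, adjusted p = 1.78e-04), Ccr7 (log2 fold change -0.67 ± 0.17 SE, adjusted p = 0.00200) and Ccr9 (log2 fold change -0.78 ± 0.29 SE, adjusted p = 0.0278, edgeR) were lower in the hCD2+ fraction in 11, 10 and 9 of 11 mice, 3 of 6 tested receptors against 51.2% of all genes tested (27.8% higher, 23.4% lower). Different clusters held this class: cluster 25, with Ctla4 and cell cycle genes in its lead, was 67 of 345 hCD2+ cells and 11 of 908 hCD2- cells. The Foxp3 level of the class was 49.3 CPM in hCD2+ against 26.5 CPM in hCD2- mice. Within cluster 5 alone, led by Cd8b1, S1pr1 stood at 225 ± 43.7 CPM (SD, n = 8) in the hCD2+ fraction and 261 ± 49.3 CPM (SD, n = 12) in the hCD2- fraction. Thinning to 5000 UMIs moved the Ccr7 value (log2 fold change -0.23, adjusted p = 0.223 in edgeR; range 2.68e-04 to 0.223).

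**Figure D5:**
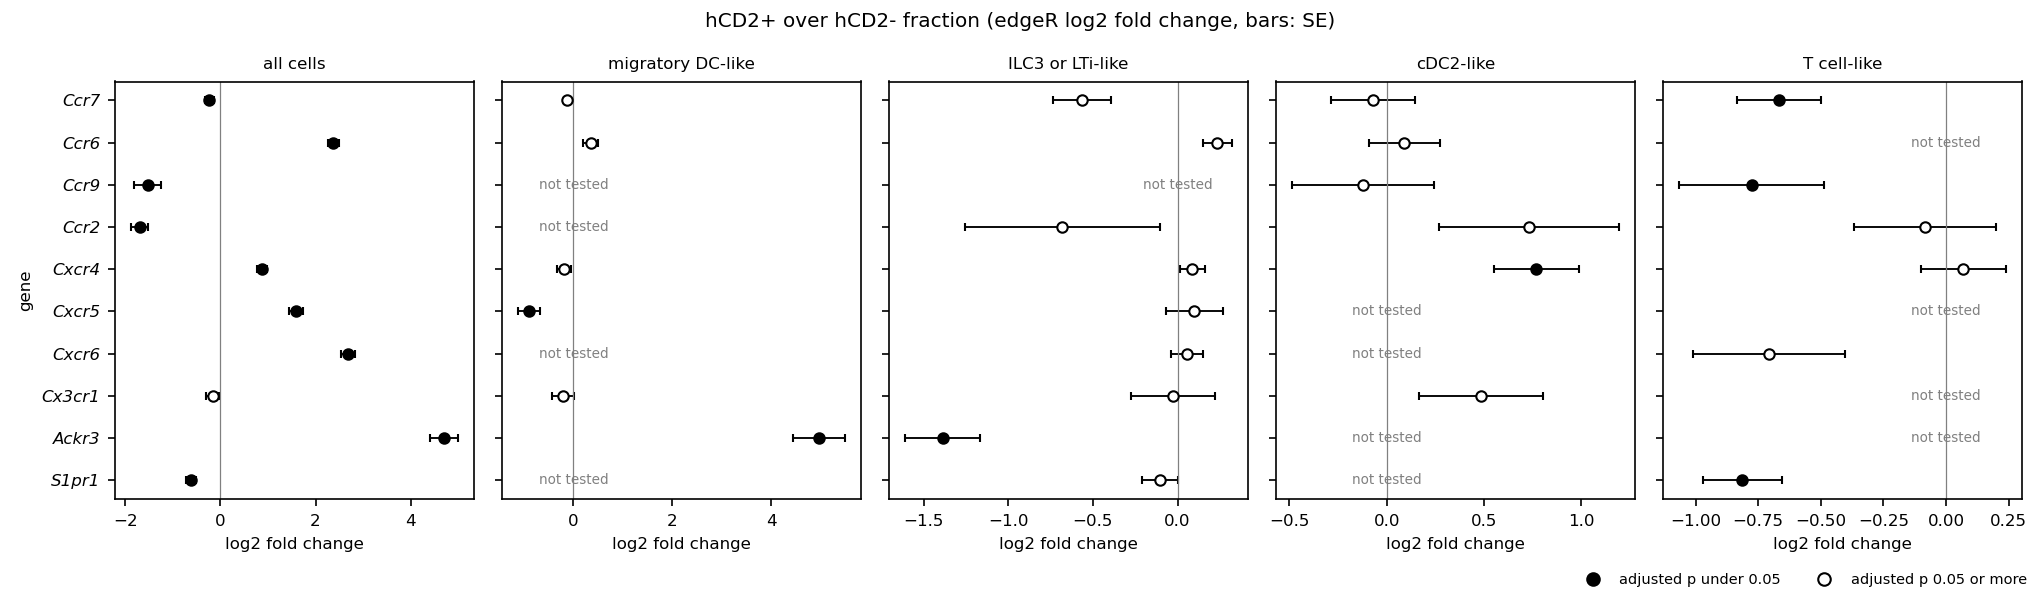
Log2 fold change of each receptor in the hCD2+ over the hCD2- fraction, with SE from edgeR, over all cells and inside 4 classes; filled points have an adjusted p under 0.05, and each panel has its own x axis. 9 receptors are filled for all cells and 1 to 3 inside a class; Ackr3 lies right of 0 in migratory DC-like cells and left of 0 in ILC3 or LTi-like cells.

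Among the lymphoid classes of the hCD2- fraction, ILC3 or LTi-like cells were set against NK or ILC1-like cells. Ccr6 (log2 fold change 7.32 ± 0.32 SE, adjusted p = 1.76e-18), Cxcr6 (log2 fold change 3.51 ± 0.25 SE, adjusted p = 2.61e-13), S1pr1 (log2 fold change 1.78 ± 0.15 SE, adjusted p = 2.76e-11) and Cxcr4 (log2 fold change 0.56 ± 0.098 SE, adjusted p = 1.55e-05, edgeR) were higher in 11 of 11 mice. Ccr2 (log2 fold change -5.06 ± 0.35 SE, adjusted p = 1.62e-13, edgeR) was lower in 11 of 11. That makes 5 of 6 tested receptors, against 59.2% of all genes tested (28.9% higher, 30.3% lower). Cxcr5 and Ackr3 were also higher in 11 of 11 mice without overlap, at 24.8 against 3.94 CPM and 31.8 against 0.522 CPM, but stayed under the filter. How many of all genes do not overlap here was not counted, so this is not read as particular to the 2 receptors. NK or ILC1-like cells, set against T cell-like cells, had more Ccr2 (log2 fold change 4.12 ± 0.18 SE, adjusted p = 1.14e-18) and Cxcr4 (log2 fold change 1.05 ± 0.11 SE, adjusted p = 2.07e-09, edgeR). They had less S1pr1 (log2 fold change -4.01 ± 0.10 SE, adjusted p = 1.61e-24), Ccr9 (log2 fold change -4.12 ± 0.31 SE, adjusted p = 9.32e-13) and Ccr7 (log2 fold change -2.45 ± 0.17 SE, adjusted p = 2.23e-13, edgeR), each in 12 of 12 mice and 5 of 6 tested receptors, against 57.1% of all genes tested (29.6% higher, 27.5% lower).

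Inside the ILC3 or LTi-like class of the hCD2+ fraction, cluster 3 (Abi3bp, Sema3d and Prss2) was set against cluster 0 (Fam184b, Il22 and Dll1). Cxcr6 was lower in cluster 3, at 97.0 to 188 CPM with a median of 141 CPM against 217 to 309 CPM with a median of 271 CPM in cluster 0, with no overlap over 12 mice each (log2 fold change -0.86 ± 0.085 SE, adjusted p = 1.70e-09, edgeR). Cxcr5 was lower in 11 of 12 mice (log2 fold change -0.62 ± 0.11 SE, adjusted p = 7.75e-05) and Ccr6 in 11 of 12 (log2 fold change -0.20 ± 0.056 SE, adjusted p = 0.00635, edgeR). Ccr7 was higher in 12 of 12 (log2 fold change 1.12 ± 0.16 SE, adjusted p = 2.53e-06) and Cx3cr1 in 10 of 12 (log2 fold change 0.69 ± 0.20 SE, adjusted p = 0.00681, edgeR). S1pr1 passed narrowly (log2 fold change -0.19 ± 0.068 SE, adjusted p = 0.0358, edgeR) and not with the mouse as a block (log2 fold change -0.19, adjusted p = 0.0573; range over the alternatives 0.0242 to 0.136). In all 6 of 8 tested receptors were called, against 30.9% of all genes tested (16.1% higher, 14.8% lower).

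Between the T cell clusters of the hCD2- fraction, cluster 5 with Cd8b1 at 725 CPM and cluster 9 with Cd4 at 309 CPM, Ccr9 was higher in cluster 5 in 11 of 12 mice (log2 fold change 1.93 ± 0.26 SE, adjusted p = 2.84e-07, edgeR). S1pr1 was lower in 11 of 12 (log2 fold change -0.55 ± 0.093 SE, adjusted p = 1.55e-05, edgeR). Ccr7 was at 442 ± 87.7 CPM in cluster 5 and 546 ± 126 CPM in cluster 9 (SD, n = 12 each, log2 fold change -0.29 ± 0.11 SE, adjusted p = 0.0458, edgeR). In all, 3 of 4 tested receptors were called, against 28.1% of all genes tested (14.1% higher, 13.9% lower). Ccr2 and Cxcr6, both under the filter, separated the clusters in all 12 mice. Cluster 5 also had 3 NK or ILC1 markers at the naming threshold and Ly6c2 among its leading genes. The pair therefore differs in more than Cd8b1 and Cd4. Ccr2 measured 24.2 CPM in cluster 5 and 0.928 CPM in cluster 9, and Cxcr6 measured 26.1 CPM in cluster 5 and 0 UMIs in cluster 9, at least 44.9-fold higher against 3 counts over the group.

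cDC1-like and cDC2-like cells of the hCD2- fraction were set against each other, and 6 of 6 tested receptors were called, against 58.5% of all genes tested (29.5% higher, 29% lower). Ccr2 was higher and Ccr6 lower in cDC1-like cells, as described above. Ccr9 was higher in cDC1-like cells (log2 fold change 2.35 ± 0.21 SE, adjusted p = 1.01e-10, edgeR). Ccr7 (log2 fold change -2.49 ± 0.34 SE, adjusted p = 4.87e-07), Cx3cr1 (log2 fold change -1.62 ± 0.36 SE, adjusted p = 3.03e-04) and Cxcr4 (log2 fold change -0.47 ± 0.18 SE, adjusted p = 0.0304, edgeR) were lower in 11, 10 and 9 of 11 mice. The Cxcr4 call was lost with thinned cells (log2 fold change -0.17, adjusted p = 0.472 in edgeR; range 0.00108 to 0.472).

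Other genes of the same pathways were read from 3 lists, 29 other chemoattractant receptors, 17 ligands of the 10 receptors and 27 regulators and signalling genes. In Prdm16 or Aire DC-like against migratory DC-like cells, 3 of the 4 other receptors tested were higher and 0 lower (median log2 fold change 0.32, all genes 0.036). Among ligands 3 of 8 were higher and 4 lower, and 13 of 24 regulators higher and 9 lower. Of all genes tested 39.1% were higher and 35.4% lower there, so the share of ligands higher is near that of all genes. Ackr1, an atypical chemokine receptor, was higher (14.1 against 0.189 CPM, log2 fold change 4.99), as was Mif, a cytokine that binds CXCR4 (577 against 66.4 CPM, log2 fold change 2.83). Cxcl16, the ligand of CXCR6, was lower (237 against 540.4 CPM, log2 fold change -1.45) and so was Rgs1, an inhibitor of chemokine receptor signalling (21.2 against 1100.1 CPM, log2 fold change -5.97, all in edgeR).
Against ILC3 or LTi-like cells, 2 of 10 other receptors tested were higher and 8 lower, against 40.8% and 41.5% of all genes (median -1.69, all genes -0.018). Cxcl16 was higher in Prdm16 or Aire DC-like cells (237 against 1.74 CPM, log2 fold change 7.28), the reverse of Cxcr6, and Cx3cl1, the ligand of CX3CR1, was lower (23.6 against 153 CPM, log2 fold change -2.51). Grk3, a kinase that desensitises receptors, was higher (429 against 20.5 CPM, log2 fold change 4.58, edgeR). Between clusters 10 and 6, Cxcl16 was again higher in cluster 10 (502 against 123 CPM, log2 fold change 2.26), and Cd69, whose product holds S1PR1 inside the cell, was lower (63.6 against 303 CPM, log2 fold change -1.998, edgeR).
In ILC3 or LTi-like against NK or ILC1-like cells, Gpr183, the oxysterol receptor, was higher (1472 against 118 CPM, log2 fold change 3.71) in edgeR. In migratory DC-like against cDC2-like cells, Cxcl16 was higher (497 against 33.6 CPM, log2 fold change 4.26) and the G protein effector Plcb2 lower (1.46 against 45.4 CPM, log2 fold change -4.57, edgeR). In cDC1-like against cDC2-like cells Xcr1 was higher (409 against 1.38 CPM, log2 fold change 8.07) and Gpr183 lower (60.9 against 277 CPM, log2 fold change -2.10, edgeR). T cell-like cells of the hCD2+ fraction had more Ccr4 (58.1 against 13.2 CPM, log2 fold change 2.20, edgeR) than those of the hCD2- fraction.

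Genes with the most similar pattern were sought by Pearson r of mean log2(CPM + 1) over the 11 class and fraction means, which share libraries, among 10134 genes. Ccr2 lay nearest to Bid (r = 0.974), Cxcr6 to Myo16 (r = 0.989) and the thrombin receptor gene F2r (r = 0.988). Ackr3 lay nearest to Cep112 (r = 0.956) and Aif1l (r = 0.954), and S1pr1 to Trib2 (r = 0.972) and Ubash3a (r = 0.970). Ccr7 was nearest to Cacnb1 (r = 0.968), Ccr6 to Mid2 (r = 0.946) and Ccr9 to Plce1 (r = 0.936). These values describe 11 points and carry no test.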

How the data were processed

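Expression was measured by single-cell RNA sequencing of 2 sorted fractions. The deposited matrices hold UMI counts per gene and barcode made with Cell Ranger 8.0.1, per the file headers, on mm10, per the submitters' processing notes. The deposited hashtag tables give the assigned hashtag state and, as a fraction, its probability, made by the same tool per the file headers. The deposited matrices are unfiltered; called cells were those in the hashtag tables.

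Kept cells had 1 hashtag, 500 genes or more and a mitochondrial share of up to 10%; 806 hCD2+ and 465 hCD2- multiplets were left out with blank and unassigned cells, and no further doublet caller was run. Called cells held 178129025 hCD2+ and 150904166 hCD2- UMIs. Clusters came from scanpy 1.11.5 (2000 variable genes, 30 components, 15 neighbours, Leiden resolution 1.0), without the receptors and related lists, and were named where at least 3 markers were 2-fold higher and in 10% of cells; the naming thresholds were set after clustering.

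UMIs were summed per mouse, fraction and class (at least 10 cells a mouse, 6 mice an arm) and tested over all genes with edgeR 4.0.16 (R 4.3.3; TMM, filterByExpr, quasi-likelihood test, Benjamini-Hochberg adjustment, threshold 0.05). Every adjusted p of a fold change is from this test unless another is named. Alternatives were the mouse as a block, RLE scaling, no filter, DESeq2 1.42.0, thinning, 20 cells a mouse, resolution 2.0, a probability of 0.99, an equal cluster mix and, chosen after seeing the data, leaving out cluster 13. The same hashtag is read as the same animal in both fractions. Over 11216 genes same-mouse deviations correlated at 0.137 to 0.506 (mean 0.301), above 0.1 in 12 of 12 mice. Different mice correlated at -0.0273 on average. For 6 of 12 hCD2+ mice the own hashtag gave the highest correlation in the hCD2- fraction, so the link is not shown for every mouse. Counts of mice between fractions and the fits with the mouse as a block rest on it. The code was tested on simulated data.

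The receptors and lists were chosen with earlier results of these data known, and the 4 cluster comparisons after the clusters were seen. Named list genes were the 2 called genes of smallest adjusted p per list and direction, of which examples are given, and similar genes were the 3 of highest Pearson r. Intervals and floors cover counting error only. The share of all genes without overlap is not given for any comparison, so a lack of overlap is nowhere read as particular to the receptors.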

Additional observations from a re-analysis of the deposited data

Results flagged for a closer look

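In cDC2-like cells of the hCD2+ fraction 1 of 9 mice stood apart from the others for each of 4 receptors, a different mouse each time: Ccr2 at 109 CPM with the next mouse at 49.8 CPM, Cxcr6 at 25.3 CPM with the next at 9.74 CPM, Ackr3 at 9.57 CPM with the next at 4.29 CPM, and S1pr1 at 7.31 CPM with the next at 2.15 CPM. The Cxcr6, Ackr3 and S1pr1 means of this class lie under the free RNA bound and rest on 14, 13 and 5 UMIs. Of 10 groups tested for such a gap, beside 110 class values in all, 4 were flagged, where chance flags about 5%. All 4 lie in 1 class of 9 mice. The 10 groups tested are as many as the receptors of this class, so this placement may follow from the choice of groups. It is not read as a trait of that class. Ccr9 in ILC3 or LTi-like hCD2- cells, with 1 of 11 mice at 50.6 CPM and 9 at 0, was not among those flagged. That is not read as the lack of a gap, since it may not have been among the groups tested.

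The edgeR interaction term for the effect of the fraction, ILC3 or LTi-like minus migratory DC-like cells, passed the threshold for 3 receptors: Cxcr5 by a log2 difference of 1.01 ± 0.27 SE (adjusted p = 0.0103), Cxcr6 by -2.99 ± 0.75 SE (adjusted p = 0.00527) and Ackr3 by -6.32 ± 0.69 SE (adjusted p = 3.57e-09). Cxcr6 lies under the free RNA bound in migratory DC-like cells of both fractions, so its value is not read as a difference in them. Without cluster 13 the Cxcr5 difference was 1.02, adjusted p = 0.0625 (edgeR; range over the alternatives 0.00231 to 0.0625). The Ackr3 difference was then -4.68, adjusted p = 1.43e-04 (edgeR; range 2.07e-13 to 1.43e-04), but without that cluster Ackr3 did not pass the filter on low counts in migratory cells alone, so this value gives no size for them. With thinned cells the Cxcr6 difference was -1.71, adjusted p = 0.333 (edgeR; range 9.79e-05 to 0.333).

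Called cells without an assigned hashtag entered no comparison. All 10 receptors had UMIs in them, and Ccr7, the one with most, stood at 508 CPM in 580 hCD2+ cells and at 559 CPM in 231 hCD2- cells.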

How the results depend on the processing

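Of 642 values of 89 results under the alternatives, 594 kept their direction and side of the threshold, 27 lost a call, 18 gained one and 3 changed sign. Brackets give the share of all genes called. With an equal cluster mix in all cells 0 receptors were called (5.91%), and Ccr9 (log2 fold change 0.075) and Cxcr5 (-0.17) changed sign; Ccr6 between fractions of migratory DC-like cells turned to -0.25 without cluster 13. With the mouse as a replicate block the receptors called were 4 in migratory (34.9%) and 0 in cDC2-like cells (7.3%) between fractions. Thinning to 5000 UMIs, which leaves fewer genes to test, gave 0 of 2 tested between fractions in migratory DC-like cells (25%), 0 of 1 between clusters 13 and 1 (48.8%), 1 of 3 in T cell-like cells (13.2%) and 1 of 6 in the interaction (6.11%). Against cDC2-like cells it gave 2 of 3 for migratory DC-like (72.4%), 2 of 3 for cDC1-like (52.2%) and 3 of 4 for Prdm16 or Aire DC-like cells (46.5%). Between fractions of ILC3 or LTi-like cells RLE scaling gave 2 (4.27%), DESeq2 3 (6.86%) and resolution 2.0 3 (6.55%), and that resolution gave 5 in the interaction (13.5%). No filter gave 3 in cDC2-like cells between fractions (7.17%) and 5 between clusters 5 and 9 (12.9%), and 20 cells a mouse gave 5 there (24.9%). The cause was not tested. Beside the 2 calls gained in migratory cells and the 1 lost in cDC2-like cells, the block changed the calls of Cxcr4 (Prdm16 or Aire DC-like against cDC2-like cells), Ccr7 (clusters 13 and 1) and S1pr1 (clusters 3 and 0) and no other.

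Shares of cells with a UMI follow depth. Without thinning and thinned to 3000 UMIs they were 93.7% and 58.3% for Ccr6, 80.8% and 50.95% for Ccr2, 61.1% and 16.9% for Ccr9, 84.6% and 52.8% for Cxcr4, 28.7% and 7.39% for Cxcr5, 83.4% and 44.02% for Cxcr6, 30.2% and 7.19% for Cx3cr1, 82.9% and 46.4% for Ackr3, 92.95% and 57.1% for S1pr1; for Ccr7 the share at 3000 UMIs was 96.9%. Permuting class labels with no pairing left 14 of 40 hCD2+ and 25 of 50 hCD2- neighbouring pairs not different. The fractions of Prdm16 or Aire DC-like cells could not be compared, since no hCD2- mouse had 10 such cells. With 20 cells a mouse, both fraction comparisons of ILC3 or LTi-like and cDC2-like cells, Prdm16 or Aire DC-like against cDC2-like cells, ILC3 or LTi-like against NK or ILC1-like cells and the interaction could not be fitted; neither could cDC2-like comparisons of the hCD2+ fraction at resolution 2.0. At that resolution the largest cluster that matched the cDC2 list best (636 cells, 6 of 11 markers) went unnamed because markers of another list outnumbered its own among its top genes, so the name of most cDC2-like cells depends on the resolution.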
